A study of Mus musculus with 8 samples.

Results

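The genes of the proteasome were followed in mouse mesenchymal stem cells (MSCs) kept at low or at atmospheric oxygen. All genes of the count table whose symbol begins with Psm, followed by a letter from a to g and a number, were taken, which gave 48 of 53465 gene identifiers. Of these, 47 were among the 14369 genes with enough counts to be tested. The remaining one, Psmb11, encodes the β subunit of the thymus and had 0 counts in 7 samples and 2 counts in normoxia replicate 4. Its level therefore lay under the detection floor of 3 counts.

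MSCs are stromal cells from which osteoblasts, adipocytes and chondrocytes can arise. The labels call the cells bone-marrow MSCs, and the study isolated them from crushed bone of the hind limbs of wild-type male C57BL/6N mice aged 3 to 5 months, and both groups were grown in α-MEM with 5% CO2. The groups were 4 samples at 2% O2 (hypoxia) and 4 at 21% O2 (normoxia): the labels place the sorting of MSCs on day 12 of culture at either oxygen level, whereas the study's methods describe growth at low oxygen, sorting of CD45-/Ter119-/Sca-1+/CD140a+ cells and only then their division between the oxygen levels. RNA was sequenced in bulk, so that fewer cells of a type and less RNA per cell cannot be told apart.

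The proteasome degrades proteins that carry chains of ubiquitin. Its 20S core particle is a barrel in which outer rings of α subunits, which gate the entrance, enclose inner rings of β subunits, and only Psmb5, Psmb6 and Psmb7 encode β subunits with catalytic activity. In the immunoproteasome, which produces peptides for antigen presentation, these are replaced by Psmb8, Psmb9 and Psmb10. The 19S regulatory particle caps the barrel: its base holds the ATPases that unfold substrates, and its lid holds the enzyme that removes ubiquitin. The PA28 and PA200 activators can take the place of the 19S particle, and dedicated chaperones assemble the parts. When proteasome activity falls, the transcription factor NRF1 (gene Nfe2l1) raises the transcription of proteasome genes through antioxidant response elements.

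Total counts were between 12898291 and 13433824 in 7 samples and 25132141 in hypoxia replicate 1, so 3 counts correspond to 0.119 to 0.233 CPM by these totals. Elsewhere CPM are counts scaled to library size with TMM factors. All 10 MSC markers examined were detected, including Pdgfra and Ly6a, the genes of CD140a and Sca-1. Markers of blood cells were present as well: 9 of 14 passed the filter, their summed level was 592 to 1254 CPM in hypoxia and 662 to 1266 CPM in normoxia, and Cd3e, Hbb-bs and Hba-a1 were at 0 in every sample. The 4 endothelial markers summed to at most 2.65 CPM.

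Promoters are shown for members that share one match to the core of the antioxidant response element (TGACNNNGC, either strand) but whose transcripts did not move alike: Psmd12 and Psmc6 were higher in normoxia, Psmb6 was lower, and Psmb5 did not pass the test (values below). The sequences are RefSeq's for GRCm38.p6, read on the strand of the gene, and end at the RefSeq start site or before the first exon of GENCODE M21. Capitals mark the match. The windows are chr11:107479278-107479483 (plus strand) for Psmd12, chr14:45329574-45329787 (plus) for Psmc6, chr14:54618023-54618245 (minus) for Psmb5 and chr11:70525107-70525356 (plus) for Psmb6.
Psmd12: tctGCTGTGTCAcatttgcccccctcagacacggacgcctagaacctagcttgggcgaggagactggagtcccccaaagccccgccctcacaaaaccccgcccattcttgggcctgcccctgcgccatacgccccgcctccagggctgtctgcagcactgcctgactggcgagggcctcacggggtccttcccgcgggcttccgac
Psmc6: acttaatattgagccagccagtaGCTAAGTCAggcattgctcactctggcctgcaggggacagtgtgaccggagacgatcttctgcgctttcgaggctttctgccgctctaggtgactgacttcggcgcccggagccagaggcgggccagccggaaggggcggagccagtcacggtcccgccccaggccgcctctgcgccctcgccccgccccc
Psmb5: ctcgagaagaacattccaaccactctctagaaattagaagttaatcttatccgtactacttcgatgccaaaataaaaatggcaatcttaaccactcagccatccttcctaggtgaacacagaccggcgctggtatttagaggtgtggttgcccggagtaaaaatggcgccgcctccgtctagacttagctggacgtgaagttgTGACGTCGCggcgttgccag
Psmb6: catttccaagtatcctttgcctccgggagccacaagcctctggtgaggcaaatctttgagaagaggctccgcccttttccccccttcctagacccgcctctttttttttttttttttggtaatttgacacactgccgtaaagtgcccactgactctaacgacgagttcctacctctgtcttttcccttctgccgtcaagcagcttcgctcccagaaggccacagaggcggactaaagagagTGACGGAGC
The match began 247 bases before the RefSeq start in Psmd12, 227 before it in Psmc6, 47 before it in Psmb5 and 9 before it in Psmb6. Promoter windows of 300 bases (250 before to 50 after the start) were found for 40 of the 48 members and for 27025 genes in all. The TGACNNNGC core occurred in 6 of the 40 members (15.0%), namely Psmb5, Psmb6, Psmc6, Psmd12, Psmd9 and Psme4, and in 14.0% of all promoters. The core of the interferon-stimulated response element (GAAA, any 2 bases, GAAA) occurred in 5 members (12.5%), Psmb3, Psmd4, Psmd9, Psme1 and Psmg4, against 3.99% of all promoters. None of these 5 is a subunit of the immunoproteasome, although Psme1 belongs to PA28. The CCAAT box was found in 35.0% of members and 41.1% of all promoters, the ACGTG core of the hypoxia response element in 20% and 21.8%, and the TTCNNNGAA element bound by STAT factors in 7.5% and 9.55%. A match describes letters in the window and is not evidence of binding.

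To examine whether the transcripts of this complex differ with oxygen, each gene was compared between the groups with limma-trend on log2 CPM, with adjustment over all 14369 genes. The changes were small. Of the 17 members in the 19S base and lid, 9 rose in normoxia and none fell. In the β ring 4 of 7 members, and of the inducible β subunits 1 of 3, fell and none rose. The 19S subunits Sem1 and Adrm1, whose symbols do not begin with Psm, are given with the partners. Of the 47 tested members, 20 passed an adjusted p of 0.05, of which 11 were higher and 9 lower in normoxia, while 34.6% of all tested genes passed (18% higher, 16.5% lower). The log2 changes (normoxia minus hypoxia) ranged from -0.91 to 0.48, with a median of 0.07 against 0.00 for all tested genes. The summed level of the members was 2992 to 3465 CPM in hypoxia and 3332 to 3678 CPM in normoxia, and these ranges overlapped. For 15 members, 11 higher and 4 lower, hypoxia and normoxia samples occupied separate ranges, as did 32.6% of all genes. With samples of the same number treated as pairs (a replicate block), 14 members were higher and 13 lower, against 23.3% and 22.7% of all genes (46% in either direction). The number of members lower in normoxia fell to 4 without hypoxia replicate 3 or without hypoxia replicate 4, and to 5 without normoxia replicate 4. Over all genes the number lower fell from 2378 to 1819, 1919 and 2098 in these 3 runs. The number of members higher was between 8 and 14 whichever sample was left out.

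**Figure D1:**
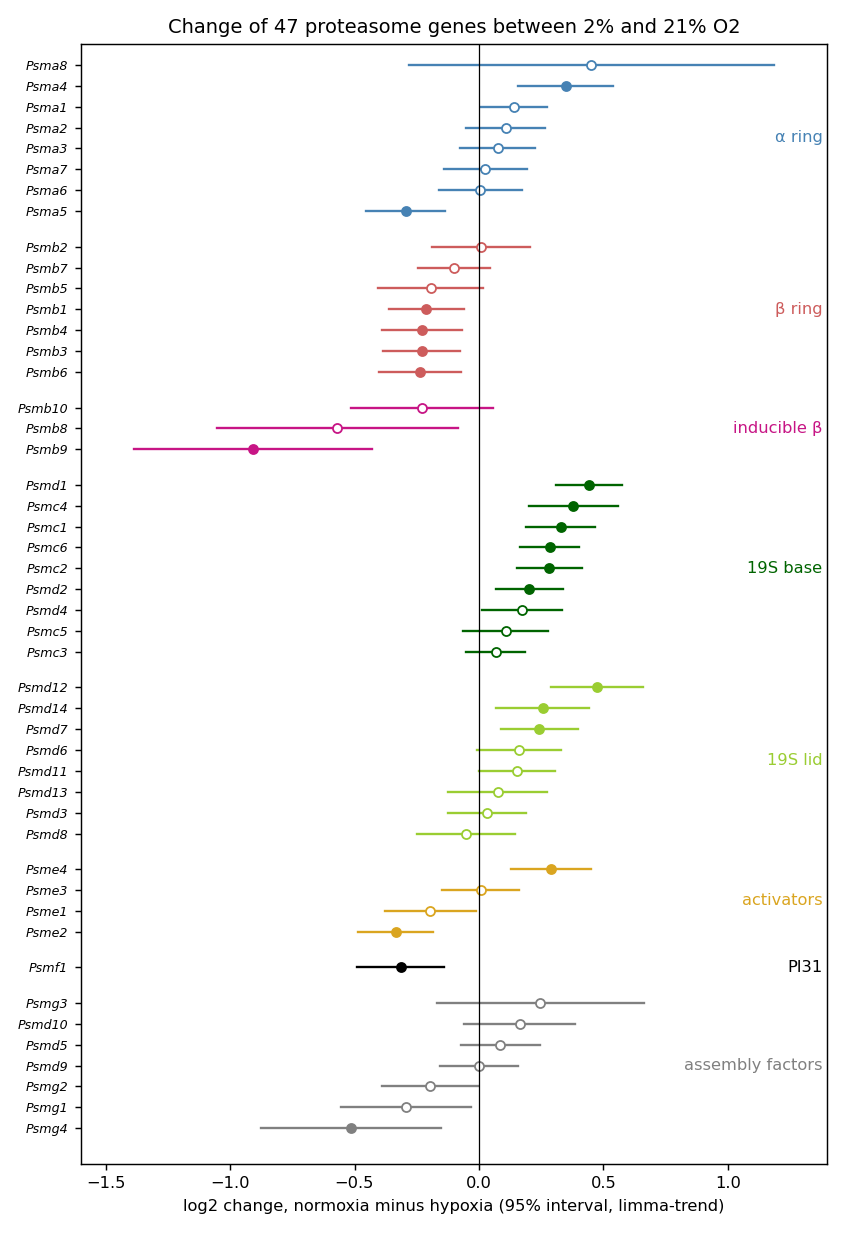
Log2 change (normoxia minus hypoxia, x axis) of each of the 47 tested members, grouped and coloured by subcomplex, with 95% intervals from limma-trend. Filled points have an adjusted p under 0.05: the 9 filled points of the 19S base and lid lie to the right of 0, and the 4 of the β ring and the 1 of the inducible β subunits lie to the left.

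The members in the base of the 19S particle are the ATPases Psmc1 to Psmc6 and also Psmd1, Psmd2 and Psmd4, which hold the ring together and bind ubiquitin and its shuttles. All 9 members had positive log2 changes (0.07 to 0.44, median 0.28), 6 rose and none fell, while 18% of all tested genes rose and 16.5% fell. Of the 9, 8 were higher in normoxia in all 4 pairs of same-numbered samples. The share of all tested genes that were higher in all 4 pairs was not counted. It is at least the 17.1% whose normoxia samples all lay above their hypoxia samples. Psmd1, the large scaffold subunit, was at 106, 95.6, 96.3 and 91.7 CPM in hypoxia replicates 1 to 4 and at 141, 131, 130 and 128 CPM in normoxia. Every normoxia sample thus lay above every hypoxia sample, and the log2 change was 0.44 ± 0.06 (SE, adjusted p = 0.00031).

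Psmc4, an ATPase, was at 64.0, 54.9, 60.2 and 55.9 CPM in hypoxia and at 86.5, 69.2, 80.5 and 70.4 CPM in normoxia. In both groups replicates 1 and 3 were the higher ones, the groups did not overlap, and the log2 change was 0.38 ± 0.08 (adjusted p = 0.0041). Psmc1, another ATPase, was at 103, 88.7, 93.3 and 92.8 CPM in hypoxia against 128, 115, 119 and 113 CPM in normoxia. Its groups were separate as well (log2 change 0.33 ± 0.06, adjusted p = 0.0021). The other base genes that rose were Psmc6 and Psmc2 (log2 change 0.28 each) and Psmd2 (0.20, adjusted p = 0.025), the most counted member with a mean of 260 CPM in hypoxia and 299 CPM in normoxia. Psmd4, the ubiquitin receptor, had a log2 change of 0.17 (adjusted p = 0.091) and passed with the replicate block (adjusted p = 0.019). Psmc5 (0.11, 95% interval -0.06 to 0.28) and Psmc3 (0.07, -0.05 to 0.19) did not pass. After a correction for the GC content and length of transcripts 6 base genes were again called higher, but Psmc2 and Psmc6 were replaced by Psmc3 and Psmd4.

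In the lid, 3 of 8 members rose and none fell (median log2 change 0.16, range -0.05 to 0.48). The 3 of 8 called stand near the 34.6% of all tested genes called (18% higher, 16.5% lower). Sem1, a lid subunit without a Psm symbol and so not among these 8, fell by 0.23 (adjusted p = 0.023). Psmd12, a scaffold subunit, showed the largest rise of all members past the threshold: it was at 47.7, 39.8, 43.2 and 42.4 CPM in hypoxia and at 69.1, 55.5, 61.6 and 55.1 CPM in normoxia. Replicate 1 was the highest sample in both groups, the lowest normoxia sample was still above the highest hypoxia sample, and the log2 change was 0.48 ± 0.08 (adjusted p = 0.0013). Psmd14, the enzyme that cuts ubiquitin chains from the substrate, rose by 0.26 (adjusted p = 0.036), and Psmd7, its partner without catalytic activity, by 0.24 (adjusted p = 0.020). Psmd6 (0.16), Psmd11 (0.15), Psmd13 (0.07), Psmd3 (0.03) and Psmd8 (-0.05) did not pass. With the replicate block 5 lid genes were called higher, against 23.3% of all genes. With the correction for GC content and length 2 were, against 15.1% of all genes, and Psmd14 was not one of them. The count of lid genes called was 1 without hypoxia replicate 3, without hypoxia replicate 4 or without normoxia replicate 1, and 5 without hypoxia replicate 1.

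**Figure D2:**
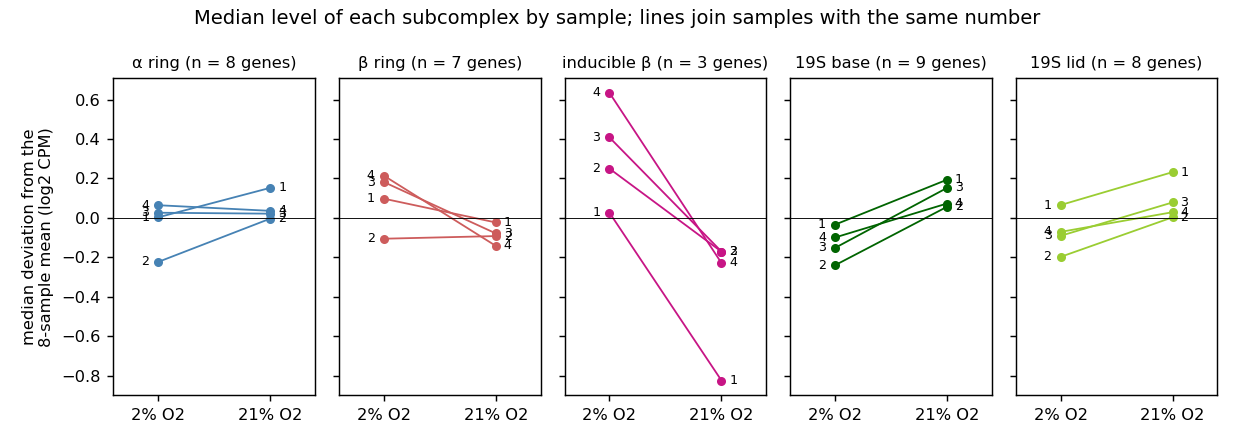
Median over the genes of a subcomplex of the deviation of log2 CPM from the mean of the 8 samples (y axis), for samples at 2% and 21% O2 (x axis). Numbers are replicates and lines join samples with the same number: all 4 lines rise for the 19S base and lid and all 4 fall for the inducible β subunits, while for the β ring that of replicate 2 is nearly flat.

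In the α ring of the 20S core most transcripts did not pass the test, with 1 rise and 1 fall among 8 genes (median log2 change 0.09). Psma4 was at 70.1, 56.6, 59.0 and 62.6 CPM in hypoxia and at 92.0, 76.1, 77.2 and 71.6 CPM in normoxia. All normoxia samples were above all hypoxia samples (log2 change 0.35 ± 0.09, adjusted p = 0.0091). Psma5 moved the opposite way, from 86.4, 82.3, 93.2 and 105 CPM in hypoxia to 74.5, 75.2, 74.3 and 73.8 CPM in normoxia. Its normoxia values were nearly the same in all 4 samples and all below the hypoxia values (log2 change -0.29 ± 0.07, adjusted p = 0.0082). Both calls held under every alternative run and with any 1 sample left out. Psma1, Psma2, Psma3, Psma6 and Psma7 had log2 changes of 0.01 to 0.14 and did not pass. After the correction for GC content and length Psma7 was called higher (0.24, adjusted p = 0.022). Psma8, the α subunit of the testis, was near the floor at 5 to 25 counts per sample.

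In the β ring 6 of 7 genes had negative log2 changes (median -0.21), 4 fell and none rose, while 16.5% of all tested genes fell and 18% rose. Psmb4, the most abundant member per kilobase, was at 177, 148, 184 and 185 CPM in hypoxia and at 155, 143, 147 and 145 CPM in normoxia (log2 change -0.23 ± 0.07, adjusted p = 0.029). Hypoxia replicate 2 lay within the normoxia range, and the other hypoxia samples above it. Psmb3 showed a like picture, with 91.1, 80.4, 97.4 and 92.9 CPM in hypoxia and 83.5, 72.0, 75.2 and 77.2 CPM in normoxia (-0.23 ± 0.07, adjusted p = 0.026). Here too only hypoxia replicate 2 fell within the normoxia range. Psmb1 fell by 0.21 (adjusted p = 0.033), and Psmb2 did not pass (0.01, 95% interval -0.19 to 0.20). The calls of the β ring depended on single samples: none was left without hypoxia replicate 3 or without hypoxia replicate 4, and 1 was left without normoxia replicate 2, 3 or 4, each left out alone. After the correction for GC content and length Psmb4 and Psmb6 were no longer called (adjusted p = 0.18 and 0.15).

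Since a ratio between genes of a sample does not depend on the scaling of the library, the summed CPM of the subcomplexes were set against each other. Only members were summed, so the 19S subunits Sem1 and Adrm1 were left out. The 17 members of the 19S base and lid over the 15 members of the α and β rings gave 1.33, 1.31, 1.19 and 1.15 in hypoxia and 1.53, 1.48, 1.53 and 1.48 in normoxia. The groups did not overlap, the means were 1.246 ± 0.089 and 1.503 ± 0.030 (SD, n = 4 each), and the ratio was thus 1.21-fold higher in normoxia. For the base over the β ring the means were 1.36 ± 0.12 and 1.83 ± 0.027, a 1.35-fold difference, and for the lid over the β ring 0.961 ± 0.071 and 1.21 ± 0.047, in both cases without overlap. Even within the core the α ring gained on the β ring, from 0.863 ± 0.024 to 1.02 ± 0.022, again without overlap. After the correction for GC content and length the folds were 1.20 for the 19S particle over the core, 1.28 in place of 1.35 for the base, 1.20 in place of 1.255 for the lid and 1.08 in place of 1.18 for the α ring over the β ring. These ratios and the genes within them were compared after the values had been seen, and no test was made of them.

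**Figure D3:**
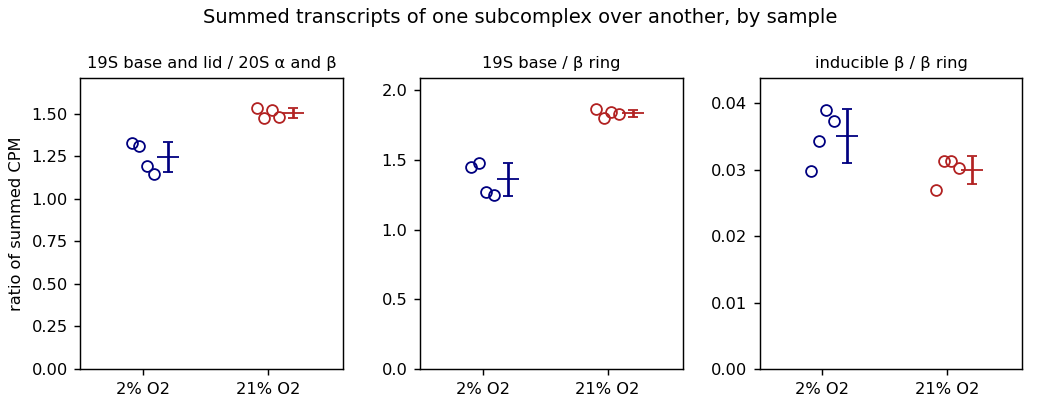
Ratio of summed CPM between subcomplexes (y axis, from 0) for the samples at 2% and 21% O2, with points for samples and the mean ± SD beside them (n = 4). For the 19S particle over the 20S core and for the base over the β ring all normoxia samples lie above all hypoxia samples, while for the inducible β subunits over the β ring the groups overlap.

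The catalytic subunits were then compared with their counterparts in the immunoproteasome. Of the standard subunits, Psmb6 (caspase-like activity) was at 104, 89.1, 114 and 111 CPM in hypoxia and at 87.6, 89.9, 90.7 and 85.0 CPM in normoxia. Hypoxia replicate 2 again lay among the normoxia samples, and the log2 change was -0.24 ± 0.08 (adjusted p = 0.029). The call was lost without hypoxia replicate 3, hypoxia replicate 4 or normoxia replicate 4 (adjusted p = 0.092, 0.083 and 0.068). Psmb5 (chymotrypsin-like) was at 61.0, 53.8, 65.3 and 71.0 CPM in hypoxia and at 60.5, 56.8, 55.6 and 46.5 CPM in normoxia, with overlap of the groups (-0.19 ± 0.10, 95% interval -0.41 to 0.02, adjusted p = 0.14). Its log2 change passed narrowly with the replicate block (adjusted p = 0.0499) and without hypoxia replicate 2 (-0.27, adjusted p = 0.047), and turned to 0.05 after the correction for GC content and length. Psmb7 (trypsin-like) was at 46.7, 41.9, 47.0 and 48.4 CPM in hypoxia and at 42.5, 41.8, 45.3 and 42.0 CPM in normoxia. It overlapped as well (-0.10 ± 0.07, adjusted p = 0.28), but after that correction it was called lower (-0.31, adjusted p = 0.0058).

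Psmb9, which replaces Psmb6, showed the largest change of all members. It was at 2.93, 3.45, 5.15 and 4.93 CPM in hypoxia and at 1.49, 2.16, 2.53 and 2.11 CPM in normoxia. Each hypoxia sample lay above each normoxia sample, although the gene had only 20 to 70 counts per sample, and the log2 change was -0.91 ± 0.22 (adjusted p = 0.0073). Psmb8, which replaces Psmb5, was at 4.10, 6.26, 6.56 and 7.70 CPM in hypoxia and at 2.67, 4.32, 5.20 and 4.14 CPM in normoxia. It was lower in normoxia within each pair of same-numbered samples, while the groups overlapped through hypoxia replicate 1 (log2 change -0.57 ± 0.22, adjusted p = 0.066). It passed with the replicate block (adjusted p = 0.0023), without hypoxia replicate 1 (0.012) and without normoxia replicate 3 (0.044). Psmb10, which replaces Psmb7, was at 13.5, 10.5, 16.6 and 14.6 CPM in hypoxia and at 12.6, 11.9, 11.0 and 10.9 CPM in normoxia (-0.23 ± 0.13, 95% interval -0.51 to 0.06, adjusted p = 0.20). It passed without hypoxia replicate 2, which had its lowest value (-0.35, adjusted p = 0.030).

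Set against its standard counterpart in the same sample, Psmb9 was at log2 ratios to Psmb6 of -5.05 to -4.41 in hypoxia and -5.70 to -5.06 in normoxia. These ranges met without overlap, and the mean difference was -0.67. For Psmb8 to Psmb5 the mean difference was -0.38 and for Psmb10 to Psmb7 -0.13, both with overlap. Per kilobase of exonic length, Psmb9 stood at 0.868 to 2.32% of Psmb6 and Psmb8 at 1.17 to 3.09% of Psmb5, whereas Psmb10 stood at 49.0 to 70.7% of Psmb7. With the length of the principal transcript in place of all exons, the last range was 21.6 to 31.2%, so that the order of the pairs was kept but not the size.

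**Figure D4:**
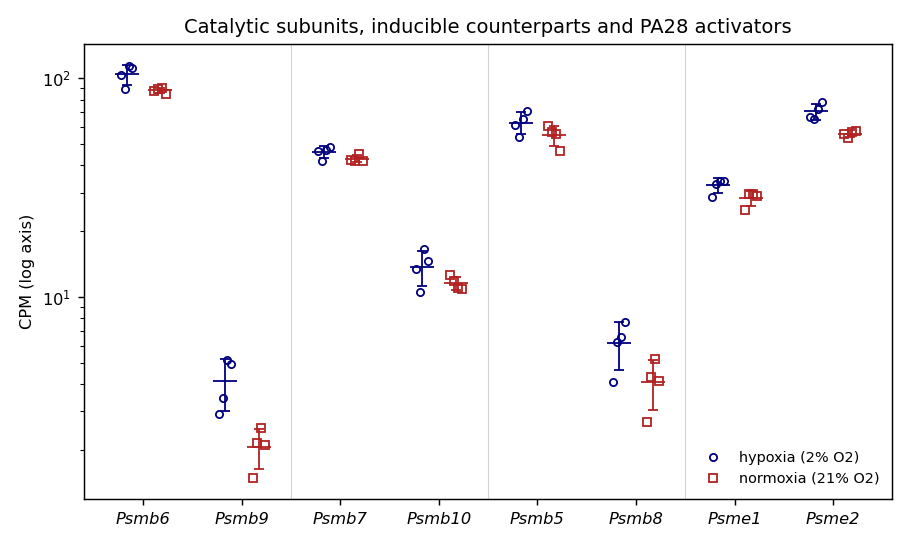
CPM (y axis, log scale) of the standard catalytic β subunits, each beside its inducible counterpart, and of the PA28 genes, with points for samples and the mean ± SD (n = 4). Hypoxia and normoxia separate for Psmb9 and Psme2 and overlap for the other 6 genes.

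Psmb8 and Psmb9 are also expressed by blood cells, and blood markers were present in the samples. Summed over the 14 markers, these were at 592, 817, 1254 and 987 CPM in hypoxia replicates 1 to 4 and at 662, 795, 1266 and 935 CPM in normoxia, so that replicate 3 was highest and replicate 1 lowest in both groups. Psmb9 had the same highest and lowest replicates in both groups, and so did Psmb8 in normoxia, whereas in hypoxia Psmb8 was highest in replicate 4. The largest part of the marker sum was Lyz2, the lysozyme of myeloid cells, which rose by 0.56 (adjusted p = 0.022). Without it the other markers summed to 331, 476, 818 and 611 CPM in hypoxia and to 263, 329, 575 and 398 CPM in normoxia. That sum was lower in all 4 pairs of same-numbered samples, as Psmb8 and Psmb9 were, whereas the sum with Lyz2 was lower in only 2. Of the single markers, 7 of the 9 that were tested had negative log2 changes, as had 7109 of all 14369 genes. Without the block 1 of the 9 was called lower and 1 higher. Laptm5, a lysosomal membrane protein of blood cells, fell by 0.91 (adjusted p = 0.028). With the replicate block 6 markers were called lower, among them Laptm5 and Csf1r (-0.59), the receptor that macrophages need, and 1 higher. Ptprc, the gene of CD45 (0.08, adjusted p = 0.61), and Adgre1 (-0.11, adjusted p = 0.13) were not called with the block. Of all genes 22.7% were called lower and 23.3% higher with the block. The part of blood cells in the level of Psmb8 and Psmb9 was not tested.

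The genes lie in the major histocompatibility complex on chromosome 17 (GRCm38): Psmb9 at 34181987 to 34187764 on the minus strand, Tap1 at 34187553 to 34197225 and Psmb8 at 34197721 to 34201454, both on the plus strand. Psmb9 and Tap1 overlap at their 5' ends, and whether the counting used strand is not stated. Tap1, a subunit of the peptide transporter, had 24.8 to 43.3 CPM and a log2 change of -0.22 (adjusted p = 0.22, and 0.0098 with the replicate block). Psmb11, the thymic subunit, lies beside Psmb5 on chromosome 14.

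Among the activators, PA28α and PA28β (Psme1 and Psme2), which form the activator induced by interferon, were not called alike: Psme2 fell, while Psme1 missed the threshold. Psme2 was at 66.4, 65.4, 72.3 and 78.4 CPM in hypoxia and at 55.6, 53.2, 56.9 and 57.7 CPM in normoxia. The groups were separate, and the log2 change was -0.33 ± 0.07 (adjusted p = 0.0030). Its partner Psme1 was at 28.6, 33.0, 34.0 and 34.1 CPM in hypoxia and at 25.0, 29.5, 29.5 and 29.1 CPM in normoxia. Replicate 1 was the lowest in both groups, every normoxia sample was below the hypoxia sample of its number, and the log2 change of -0.19 ± 0.08 missed the threshold (adjusted p = 0.095) but passed with the replicate block (0.025) and without hypoxia replicate 1 (0.029). After the correction for GC content and length it was -0.03 (adjusted p = 0.82). The gene pair lies on chromosome 14 at 55578123 to 55581529 (Psme1, plus strand) and 55587441 to 55591113 (Psme2, minus strand). A near-copy of Psme2 elsewhere in the genome, Psme2b, had 20 to 43 counts per sample, and how reads that match both were counted is not stated.

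Psme3, the nuclear activator PA28γ, was at 98.5, 80.5, 85.3 and 83.8 CPM in hypoxia and at 92.7, 82.6, 84.8 and 88.9 CPM in normoxia. The groups overlapped throughout, and the log2 change was 0.01 (95% interval -0.15 to 0.16). Psme4, which encodes PA200, was at 78.2, 65.3, 72.1 and 65.0 CPM in hypoxia and at 86.4, 82.3, 81.1 and 92.6 CPM in normoxia. All normoxia samples were higher (log2 change 0.29 ± 0.07, adjusted p = 0.0095), but the call was lost with the correction for GC content and length (0.12, adjusted p = 0.25). Psmf1, whose product PI31 binds the core and inhibits it in vitro, was at 39.2, 39.6, 39.3 and 43.5 CPM in hypoxia and at 30.5, 35.4, 29.2 and 34.9 CPM in normoxia. It fell without overlap of the groups (-0.31 ± 0.08, adjusted p = 0.0094), and this call held after the correction.

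The 7 assembly factors had a median log2 change of 0.00, with 1 fall and no rise. Psmg1 to Psmg4 assemble the α ring, and Psmd5, Psmd9 and Psmd10 assemble the base. Psmg4 was at 7.15, 5.21, 8.51 and 8.71 CPM in hypoxia and at 5.35, 4.32, 5.20 and 5.28 CPM in normoxia. Hypoxia replicate 2 lay within the normoxia range (log2 change -0.51 ± 0.17, adjusted p = 0.032), and the call was lost without hypoxia replicate 3 or 4 or without normoxia replicate 2, 3 or 4 (adjusted p = 0.051 to 0.097), and with the correction (adjusted p = 0.17). Psmg1 (-0.29, adjusted p = 0.077) passed with the replicate block (adjusted p = 0.034). Psmg2 (-0.20) and Psmg3 (0.25) did not pass. The chaperones of the base, which themselves did not pass, had log2 changes of 0.16 (Psmd10), 0.09 (Psmd5) and 0.00 (Psmd9).

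Levels were compared between genes as CPM per kilobase of exonic length. In hypoxia the β ring had the highest median, 48.9 CPM per kilobase, followed by the base (27.2), the α ring (26.3), the lid (23.2) and the activators (22.1). The assembly factors (9.91) and the inducible β subunits (1.82) were lower. Psmb4 was first of all members, at 88.9 ± 9.02 in hypoxia and 75.5 ± 2.64 in normoxia (SD, n = 4). Psma6 at 74.0 ± 8.06, Psmb5 at 69.9 ± 8.07 and Psma5 at 69.4 ± 7.43 followed it in hypoxia, and these 3 did not differ from each other beyond their SDs. At the lower end Psmg3, a chaperone, stood at 1.09 ± 0.15, Psmb9 at 1.12 ± 0.30 and Psmb8 at 1.82 ± 0.45. In normoxia the medians were 47.2 for the β ring, 35.4 for the base, 29.0 for the α ring and 26.6 for the lid. Ranking by the length of the principal transcript gave a like order (Spearman's rho 0.91 over the 47 genes), with Psmb4 again first, but not the same places: Psmb6 and Psmb3 then came next, Psma6 was 5th, Psma5 10th and Psmb5 12th, and the median of the α ring (51.0) was above that of the base (49.2).

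The direction of change went with GC content. Across the 47 members, which are not independent, Spearman's rho between log2 change and GC content was -0.48, and across the 14353 genes with a value it was -0.39. The 11 members that rose had a median GC content of 46.9% (37.0 to 52.3%), the 9 that fell 51.6% (48.8 to 55.1%). After the correction 10 members were called higher and 7 lower, against 15.1% and 14.4% of all genes (29.5% in either direction). With the replicate block added to it these counts were 15 and 9, against 21.7% and 21.5% of all genes (43.2% in either direction). The median GC content was 50.9% in the base (37.0 to 55.1%) and 51.0% in the β ring (40.8 to 56.6%). Their median log2 changes after the correction were 0.22 and -0.12. Whether GC content bears on the counts of single members was not tested.

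**Figure D5:**
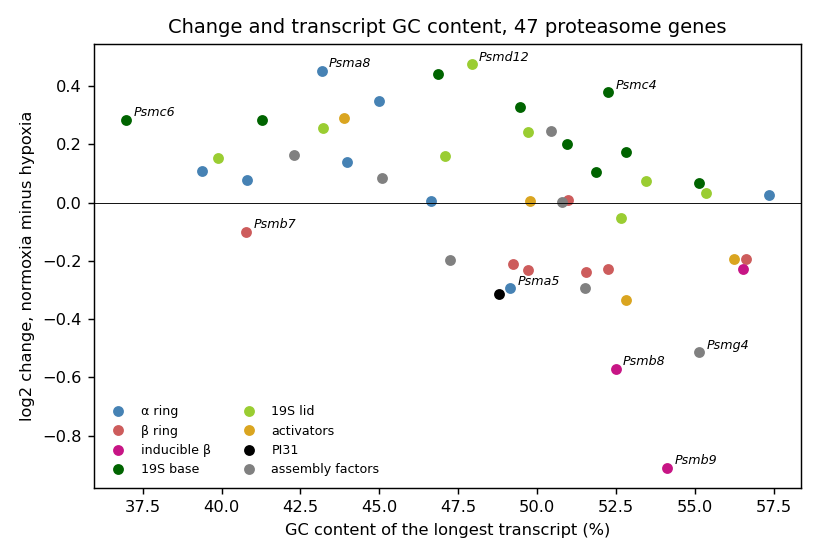
Log2 change (normoxia minus hypoxia, y axis) against the GC content of the longest transcript (x axis, %) for the 47 tested members, coloured by subcomplex. The trend is downward, with genes of the 19S base above 0 and genes of the β ring at or below it.

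Genes that work with the proteasome were examined from lists. Of 11 tested partners, which bind the particle or assist its assembly, 5 rose and 1 fell (median log2 change 0.16). Zfand2a, which encodes the stress-induced proteasome-binding protein AIRAP, rose by 0.47 (adjusted p = 0.00066), Usp14, the deubiquitinase of the base, by 0.27 (adjusted p = 0.014) and Ecpas, which tethers core and cap, by 0.22 (adjusted p = 0.024). Pomp, the chaperone that completes the core, rose by 0.20 at an adjusted p of 0.0499, and Sem1, a small lid subunit, fell by 0.23 (adjusted p = 0.023). Adrm1, the ubiquitin receptor Rpn13, was at 50.1 to 62.0 CPM in hypoxia and 53.6 to 58.3 CPM in normoxia (log2 change 0.02, adjusted p = 0.90). The count of 6 of 11 stands beside 34.6% of all tested genes. After the correction for GC content and length 3 partners were called, of which Zfand2a was higher and 2 were lower, and the calls of Usp14 (0.03, adjusted p = 0.84), Ecpas (0.06, 0.44) and Pomp (0.15, 0.13) were lost. The count of 6 fell to 3 without hypoxia replicate 4 and to 2 without normoxia replicate 3.

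Among 16 genes of ubiquitin supply, activation and delivery, 4 rose and 1 fell (median 0.01), a share near the 34.6% of all tested genes. Ufd1 (0.34) and Faf1 (0.25), cofactors of the p97 segregase, rose with Rad23b (0.28), a shuttle that carries ubiquitylated proteins to the base. Rps27a, which encodes ubiquitin fused to a ribosomal protein, fell by 0.30. With the replicate block 5 were called higher and 4 lower, against 46% of all genes. The correction for GC content and length ended the calls of Faf1 (0.15, adjusted p = 0.11) and Rad23b (0.17, adjusted p = 0.064).

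The NRF1 axis comprised the transcription factors Nfe2l1 (NRF1) and Nfe2l2 (NRF2), the enzymes Ddi2 and Ngly1 that activate NRF1, Keap1 and the small Maf partners. Of these 8 genes 4 rose and none fell, against 34.6% of all tested genes called (18% higher, 16.5% lower). Maff was at 17.8, 10.1, 13.1 and 10.2 CPM in hypoxia and at 41.7, 26.6, 27.9 and 21.4 CPM in normoxia (log2 change 1.18 ± 0.21, adjusted p = 0.0011). Mafk rose by 0.72 (adjusted p = 0.00034) and Nfe2l2 by 0.59 (adjusted p = 0.00011). For all 3 genes the groups did not overlap, as for 32.6% of all tested genes. Nfe2l1 was at 474, 502, 431 and 429 CPM in hypoxia and at 531, 531, 505 and 511 CPM in normoxia. Its groups were separate by a narrow margin (0.18 ± 0.06, adjusted p = 0.043). The same 4 genes were called after the correction for GC content and length, while the count was 3 with the edgeR test, with RLE or upper-quartile normalization, without the filter and with any 1 sample left out other than hypoxia replicate 1 or 2.

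Of 10 genes of antigen presentation, which the immunoproteasome serves, 1 rose and 1 fell (median log2 change -0.11), against 34.6% of all tested genes. Tapbp, which loads peptides onto class I molecules, fell by 0.35 (adjusted p = 0.017), a call that was lost with the correction for GC content and length (-0.19, adjusted p = 0.12). Irf1, a transcription factor that induces Psmb9, rose by 0.42 (adjusted p = 0.012), in the opposite direction to Psmb9. With the replicate block 5 genes of this list were called lower and 1 higher, against 46% of all genes, and without hypoxia replicate 1 the count was 5.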

How the data were processed

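RNA was measured in 4 hypoxia and 4 normoxia samples. The authors mapped single-end reads with zUMIs and STAR to mm10 (GRCm38), counted them per Ensembl gene with featureCounts and deposited raw counts. Whether strand, introns or multimapping reads were counted is not stated. GENCODE M21 gave symbols for 53274 of 53465 identifiers.

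Following the study's methods, genes were kept by filterByExpr (edgeR 4.0.16, minimum count 5) and compared with limma-trend (limma 3.58.1, R 4.3.3). The study names no normalization or prior count for this. The fit here used log2 CPM with TMM factors and a prior count of 3, which understates changes of low genes. All adjusted p-values come from this fit unless another is named, by Benjamini-Hochberg over all tested genes at a threshold of 0.05. The members, subcomplexes, companion lists, motifs and tests were chosen with earlier results of these data known. Values in every sample were given for the catalytic subunits, the activators and the 5 largest other rises and falls past the threshold; genes singled out beyond these were chosen after their values were seen. Symbols of members were matched exactly, and pseudogenes were not included. Some genes of the companion and marker lists are not reported here by name.

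According to the methods of the study, sorted cells were split between the oxygen levels, while the labels place the sort after culture at either level. Whether samples share a sorted population is therefore not settled by the sources, but same-numbered samples deviated together from their group means across genes (correlations 0.47, 0.28, 0.25 and 0.17). The numbers were therefore taken to pair the samples, and the comparison was repeated with the number as a blocking factor. A correction removed from each sample natural splines (5 degrees of freedom) of the GC content and length that the longest transcript had, along with any true change that follows them. Other alternatives were the edgeR quasi-likelihood test, DESeq2 1.42.0, limma-voom, RLE and upper-quartile normalization, no filter, a prior count of 1, a threshold of 0.01 and leaving out each sample. The methods were tested on simulated data, with planted changes larger than the fitted change of any member and no effect of pairing. Recovery of changes as small as those of the members was thus not examined. The floor of 3 counts covers counting error only, since amplified reads are not independent molecules. The study calls the samples of a group biologically independent.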

Additional observations from a re-analysis of the deposited data

Results flagged for a closer look

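Of 40 sets of 4 values searched with Dixon's test (20 genes in each group), 3 held a sample that stood apart from the others of its group, where chance gives about 2, or 1 in 20. Psme1 was at a log2 CPM of 4.65 in normoxia replicate 1, below the other normoxia samples at 4.87 to 4.89. Psmg4 was at 2.18 in normoxia replicate 2, with the others at 2.43 to 2.47. Psmf1 was at 5.45 in hypoxia replicate 4, above the others at 5.30 to 5.31.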

How the results depend on the processing

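The edgeR test, DESeq2, limma-voom, RLE normalization and a prior count of 1 each called 11 members higher and 9 lower, upper-quartile normalization 10 and 9, and no filter 9 and 6. At a threshold of 0.01, 2925 of all tested genes, 12 members (4 of them lower), 1 partner, 3 ubiquitin genes and 0 antigen presentation genes (2 with limma-trend at 0.05) were called. With the replicate block 9 ubiquitin and 6 antigen presentation genes were called, and with block and correction for GC content and length 8 and 4. The correction alone left 3 partners. With and without the block it brought the median log2 change of the activators to -0.0128 and the log2 change of Psmb5 to 0.0461, the opposite direction, and it brought the fold of the α over the β ring to 1.08. Psme3, which did not pass, was at -0.0089 with DESeq2, -0.0030 with RLE and -0.0218 with upper-quartile normalization. Leaving out 1 sample gave 12 members (without hypoxia replicate 3 or 4) to 25 (without hypoxia replicate 1), 4 to 12 members lower, 2 to 6 partners, 2 to 5 antigen presentation genes and -0.0353 to 0.0686 for Psme3. Beyond the calls given with the block in the text, pairing changed none of the genes described in every sample. Of the summary values 337 kept their direction and size and 22 moved, and of the values of single genes and subcomplexes 413 did so, 32 moved, 27 lost and 11 gained the call and 10 reversed. For members with few counts, such as Psma8 and Psmb9, depth limits the precision. The causes of these shifts were not tested.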
